A study of Mus musculus with 8 samples.

Results

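The genes described here encode the core of transforming growth factor beta (TGF-beta) signalling: the 3 ligands Tgfb1, Tgfb2 and Tgfb3, the receptors Tgfbr1, Tgfbr2 and Tgfbr3, the intracellular messengers Smad2 and Smad3, the inhibitor Smad7, and Tgfbi, a matrix protein named for its induction by TGF-beta. They were picked by gene symbol, with earlier results of these data known. They are 10 genes of the 22880 counted, and all 10 had enough reads to be tested. Their messenger RNA was measured by RNA sequencing in the soleus, a postural calf muscle rich in slow fibres, from 4 control mice (Dnm2 +/+) and 4 heterozygous mice (Dnm2 +/K562E, called Dnm2 wt/K562E here). All 8 were males of 2 months on a C57BL/6 background (C57BL/6J in the methods), each an independent animal, and controls in the study were age-matched or littermate Dnm2 +/+ mice. Dnm2 encodes dynamin 2, a GTPase that pinches vesicles from membranes. The K562E point mutation, which causes a dominant human neuropathy, was placed in the endogenous gene by homologous recombination. Every cell of the mouse thus carries 1 mutant allele, in muscle and in other tissues alike. The paper describes a myopathy and no definitive neuropathy in these mice.

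TGF-beta ligands are secreted in a latent complex that is stored in the extracellular matrix. Integrins, proteases and thrombospondin release the active ligand, which binds the type II receptor Tgfbr2. Tgfbr2 then recruits and phosphorylates the type I receptor Tgfbr1, while the type III receptor Tgfbr3 (betaglycan) presents ligand, above all Tgfb2, to the other two. The activated receptor phosphorylates Smad2 and Smad3, which enter the nucleus with Smad4, and Smad7 shuts the receptor off. In skeletal muscle the pathway is known for restraining fibre growth and satellite cells and for driving matrix production by fibroblasts and fibro-adipogenic progenitors.

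Levels are given as normalized CPM, counts on a gene relative to the total of the library, after scaling the libraries with the TMM factors of edgeR. Depth ran from 33407430 to 48832814 counts per mouse, and the 10 genes had between 293 and 5726 counts each in every mouse. The TMM factors of the controls lay between 0.915 and 0.959, those of the mutants between 1.04 and 1.10. Without them, every log2 fold change below would be about 0.21 higher, since the median of all tested genes lies at 0.01 with the factors and at 0.22 without. Dnm2 itself was at 66.3 ± 4.74 CPM in controls and 73.4 ± 2.43 CPM in Dnm2 wt/K562E mice (SD, n = 4 each), which does not check the genotype because both alleles are counted together. The 7 muscle fibre markers, which check the labelled tissue, summed to 42970 to 70510 CPM, and mitochondrially encoded genes took 20.41% to 25.91% of the counts.

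Ligands and receptors were all higher in the Dnm2 wt/K562E muscles, Tgfbi was more than doubled, and Smad3 was lower. By edgeR's quasi-likelihood test over 14001 genes, 7 of the 10 genes rose and 1 fell at an adjusted p under 0.05, where 22.2% of all tested genes rose and 21.7% fell. With the fold change threshold of the study as well (0.58 up or down on the log2 scale), 5 of the 10 were called higher (Tgfb2, Tgfb3, Tgfbr2, Tgfbr3 and Tgfbi) and 0 lower, against 12.9% and 7.85% of all tested genes. With library size alone as the scaling, 7 of the 10 were called higher and 0 lower, and the count over all genes went from 1806 higher and 1099 lower to 2865 higher and 564 lower. The highest mouse of one genotype stayed below the lowest of the other for 7 genes that were higher and 1 that was lower in Dnm2 wt/K562E mice, a separation seen in 20.6% and 20.5% of all tested genes. The median log2 fold change of the 10 genes was 0.55, and that of all tested genes was 0.01. In bulk tissue, more RNA per cell and more cells of a type cannot be told apart.

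**Figure D1:**
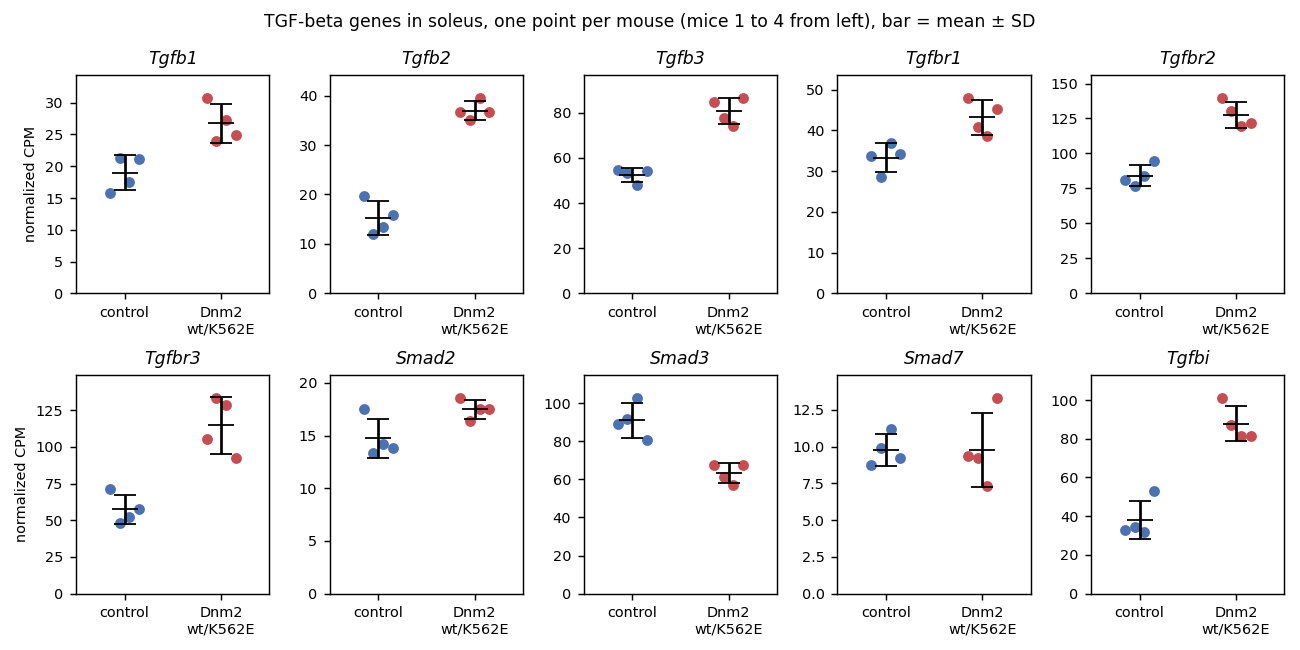
Normalized CPM (vertical axes, from 0) of each of the 10 genes in the 4 control mice (blue) and the 4 Dnm2 wt/K562E mice (red), with mice 1 to 4 from left to right and bars for the mean ± SD. The genotypes are separated for every gene but Smad2 and Smad7, with Smad3 the one that lies lower in Dnm2 wt/K562E mice.

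Tgfb2, the ligand with the largest change, encodes a TGF-beta known for its part in heart and limb development and for its need of betaglycan to bind the receptor well. Its gene (ENSMUSG00000039239) lies on the minus strand of chromosome 1 at 186622792 to 186705989 (GRCm38). Tgfb2 stood at 19.7, 11.97, 13.5 and 15.8 CPM in controls 1 to 4 and at 36.7, 35.0, 39.5 and 36.7 CPM in Dnm2 wt/K562E mice 1 to 4. The 4 mutant values lay close together and far above the highest control. The mean went from 15.3 ± 3.37 to 37.0 ± 1.88 CPM (SD, n = 4 each), 2.42-fold, with a log2 fold change of 1.28 (SE 0.13, 95% interval 0.99 to 1.57, edgeR quasi-likelihood test with Benjamini-Hochberg adjusted p = 2.66e-05).

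Tgfb3 was the most abundant ligand per length of transcript in both genotypes, and is a TGF-beta best known from palate and lung development. The gene (ENSMUSG00000021253, chromosome 12, 86056745 to 86079041, minus strand) gave 54.8, 53.2, 47.9 and 54.2 CPM in the controls and 85.0, 77.6, 74.3 and 86.5 CPM in the Dnm2 wt/K562E mice. No mutant value came near the control range, and both groups were tight. Means were 52.5 ± 3.14 and 80.8 ± 5.86 CPM, a 1.54-fold rise with a log2 fold change of 0.62 (SE 0.07, 95% interval 0.46 to 0.78, adjusted p = 5.68e-05, edgeR). This value sits just above the fold threshold and dropped to 0.58, marginally under it, when control 3 was left out.

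Tgfb1, the ligand most often studied in fibrosis and immune regulation (ENSMUSG00000002603, chromosome 7, 25687002 to 25705077, plus strand), rose less. It measured 15.8, 21.3, 17.5 and 21.2 CPM in controls and 30.7, 24.0, 27.2 and 24.9 CPM in Dnm2 wt/K562E mice. Here the groups nearly touch, with 21.3 CPM in control 2 against 24.0 CPM in Dnm2 wt/K562E mouse 2. The log2 fold change was 0.50 (SE 0.11, 95% interval 0.24 to 0.75, adjusted p = 0.00499, edgeR), a 1.41-fold rise that passed the adjusted p and missed the fold threshold.

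Because the fitted changes were unequal, the make-up of the ligand pool differed. Levels of different genes were compared as CPM per kb of exon, with the length of all annotated exons of a gene merged. On this scale Tgfb3 made up 70.8% ± 0.73 of the 3 ligands in controls and 67.2% ± 2.16 in Dnm2 wt/K562E mice (SD, n = 4 each). Tgfb2 went from 12% ± 2.31 to 18% ± 1.40, with a range of 9.38% to 15% in controls and of 16.9% to 20% in mutants. Tgfb1 held 17.2% ± 2.37 and 14.9% ± 1.34, ranges that overlapped. The shares of Tgfb2 and Tgfb3 thus did not overlap between the genotypes, and those of Tgfb1 did. For Tgfb3 the margin was narrow, with a lowest control of 69.8% and a highest mutant of 69.4%. These shares are descriptions and were given no test, and a change in which transcript isoform a muscle uses would enter them through the exon length.

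**Figure D2:**
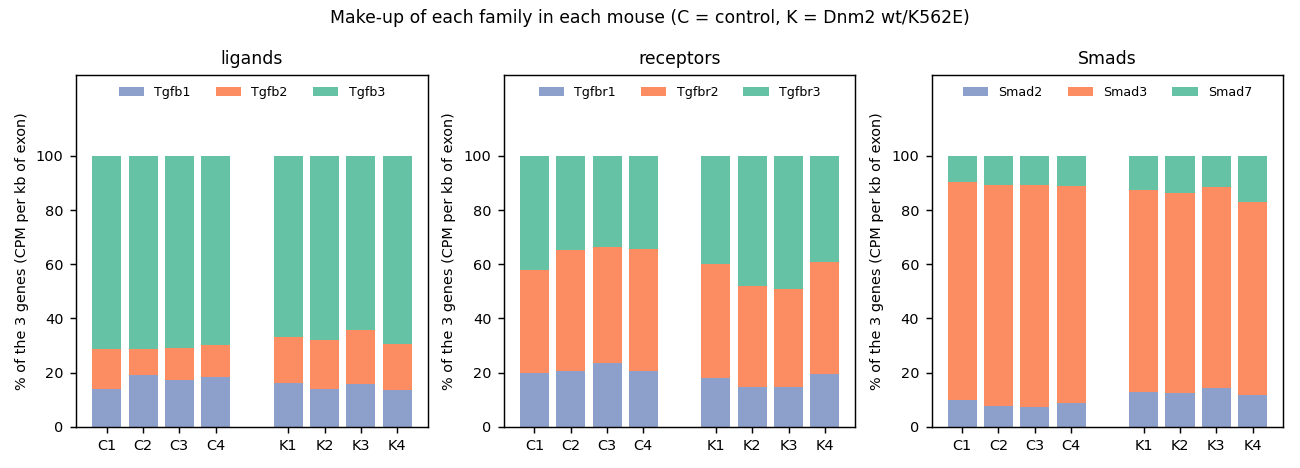
Share of each gene in the summed CPM per kb of exon of its family (vertical axes, percent) in each mouse, for ligands, receptors and Smads; C1 to C4 are controls and K1 to K4 Dnm2 wt/K562E mice. The Tgfb2 band is wider in all 4 mutants (16.9% to 20%) than in any control (9.38% to 15%), and the Smad3 band is narrower (71.3% to 74.4% against 80% to 81.9%).

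All 3 receptor genes rose at an adjusted p under 0.05, and the co-receptor rose furthest. Tgfbr3 encodes betaglycan, a membrane proteoglycan without kinase activity (ENSMUSG00000029287, chromosome 5, 107106570 to 107289629, minus strand). Its levels were 71.4, 48.0, 52.4 and 57.5 CPM in controls and 105, 133, 129 and 92.1 CPM in Dnm2 wt/K562E mice. The mutants varied more than for any other of the 10 genes in CPM, yet their lowest value was above the highest control. Tgfbr3 went from 57.3 ± 10.1 to 115 ± 19.4 CPM (SD, n = 4 each), 2.00-fold, with a log2 fold change of 1.00 (SE 0.14, 95% interval 0.69 to 1.31, adjusted p = 2.15e-04, edgeR).

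Tgfbr2 encodes the type II receptor kinase that binds ligand first (ENSMUSG00000032440, chromosome 9, 116084293 to 116175360, minus strand). The control muscles had 80.9, 76.9, 83.7 and 94.6 CPM and the Dnm2 wt/K562E muscles 140, 130, 119 and 122 CPM. Every mutant exceeded every control by more than 20 CPM. The log2 fold change of 0.60 (SE 0.08, 95% interval 0.43 to 0.78, adjusted p = 1.26e-04, edgeR) corresponds to 1.52-fold. It lies so near the fold threshold that leaving out control 1 (0.58), control 2 (0.56) or Dnm2 wt/K562E mouse 1 (0.56) took it below, while the adjusted p stayed under 0.05.

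Tgfbr1, the type I receptor kinase that phosphorylates Smad2 and Smad3 (ENSMUSG00000007613, chromosome 4, 47353222 to 47414931, plus strand), showed the smallest rise of the receptors. It stood at 33.7, 28.4, 36.9 and 34.3 CPM in controls and at 48.0, 40.8, 38.5 and 45.4 CPM in Dnm2 wt/K562E mice. Control 3 and mutant 3 were less than 2 CPM apart, and the groups did not overlap. With a log2 fold change of 0.37 (SE 0.09, 95% interval 0.16 to 0.58, adjusted p = 0.00858, edgeR), or 1.29-fold, it passed the adjusted p but not the fold threshold. Per kb of exon, the ratio of Tgfbr2 to Tgfbr1 within a mouse was 2.01 in controls and 2.37 in Dnm2 wt/K562E mice, with ranges of 1.81 to 2.20 and 2.14 to 2.55 that overlapped.

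The Smad genes did not follow the ligands and receptors. Smad3, whose protein binds DNA directly at Smad boxes, was lower in the Dnm2 wt/K562E muscles (ENSMUSG00000032402, chromosome 9, 63646767 to 63757994, minus strand). Controls had 89.1, 91.7, 103 and 80.4 CPM and Dnm2 wt/K562E mice 67.4, 61.0, 56.9 and 67.8 CPM. The lowest control was control 4, still 12 CPM or more above each mutant. Smad3 went from 90.9 ± 9.13 to 63.3 ± 5.28 CPM (SD, n = 4 each), with a log2 fold change of -0.52 (SE 0.09, 95% interval -0.71 to -0.33, adjusted p = 6.08e-04, edgeR). It missed the fold threshold with all mice and passed it, at -0.59, without control 4. With library size alone its log2 fold change was -0.31.

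Smad2, the partner of Smad3 that in its main form does not bind DNA by itself (ENSMUSG00000024563, chromosome 18, 76241580 to 76310963, plus strand), showed no change that passed the test. Its levels were 17.5, 13.3, 14.2 and 13.9 CPM in controls and 18.5, 16.4, 17.5 and 17.5 CPM in Dnm2 wt/K562E mice. Control 1 alone reached the mutant range. The log2 fold change was 0.25 (SE 0.10, 95% interval 0.04 to 0.46, adjusted p = 0.0574, edgeR), and without control 1 it was 0.33 with an adjusted p of 0.00638.

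Smad7, the inhibitory Smad that is itself switched on by TGF-beta signalling in many cells (ENSMUSG00000025880, chromosome 18, 75367529 to 75395935, plus strand), was at 8.73, 9.92, 11.2 and 9.24 CPM in controls. The Dnm2 wt/K562E mice had 9.39, 9.20, 7.30 and 13.3 CPM. Mutants 3 and 4 held the lowest and the highest value of all 8 mice, and the means were nearly equal at 9.78 ± 1.08 and 9.80 ± 2.52 CPM. Its fitted difference was -0.0005 on the log2 scale (SE 0.17, adjusted p = 0.998, edgeR), with a 95% interval of -0.37 to 0.37.

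Ratios between genes of the same mouse are not altered by how libraries are scaled. Per kb of exon, Smad3 was 9.80 times Smad2 in controls (range 8.06 to 11.4) and 5.72 times in Dnm2 wt/K562E mice (5.15 to 6.14), without overlap. The ratio of Smad7 to Smad3 went from 0.132 (0.120 to 0.141) to 0.186 (0.157 to 0.240). Tgfbr2 was below Smad3 in each control, at a ratio of 0.626 (0.553 to 0.797), and above it in each mutant, at 1.37 (1.21 to 1.44). That crossing of Tgfbr2 and Smad3 was the widest shift among the 8 ratios examined. Its place relative to a ratio of 1 depends on the exon lengths used. In CPM, control 4 already had Tgfbr2 (94.6) above Smad3 (80.4). Among the ligands, Tgfb2 relative to Tgfb3 went from 0.167 (0.131 to 0.210) to 0.267 (0.248 to 0.311), whereas Tgfb1 relative to Tgfb3 was 0.240 and 0.221 with overlapping ranges. The ratios are geometric means over 4 mice and were given no test.

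**Figure D3:**
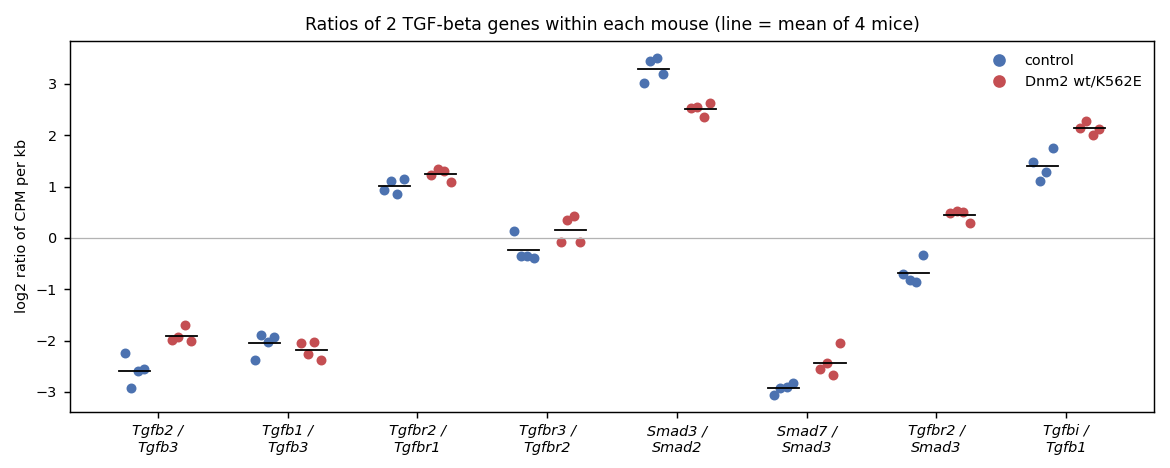
Log2 ratio of CPM per kb of exon between a pair of TGF-beta genes (vertical axis) within each control (blue) and Dnm2 wt/K562E (red) mouse, with a line at the mean of 4 mice. Tgfbr2 to Smad3 moves from below 0 (a ratio of 0.553 to 0.797) in all controls to above 0 (1.21 to 1.44) in all mutants, while Tgfb1 to Tgfb3, Tgfbr2 to Tgfbr1 and Tgfbr3 to Tgfbr2 overlap.

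Tgfbi, an adhesive extracellular matrix protein also called betaig-h3 (ENSMUSG00000035493, chromosome 13, 56609523 to 56639562, plus strand), rose almost as far as Tgfb2. Control muscles had 32.8, 34.6, 31.7 and 53.0 CPM and Dnm2 wt/K562E muscles 101, 87.0, 81.6 and 81.6 CPM. Control 4 stood well above the other controls but below every mutant. The mean went from 38.0 ± 10.04 to 87.8 ± 9.12 CPM (SD, n = 4 each), 2.31-fold, with a log2 fold change of 1.21 (SE 0.15, 95% interval 0.87 to 1.55, adjusted p = 1.13e-04, edgeR) that became 1.40 without control 4. Per kb of exon, Tgfbi was 2.64 times Tgfb1 in controls (2.17 to 3.35) and 4.39 times in mutants (4.01 to 4.85).

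The promoters of the 2 genes with the largest rise and of the 1 gene that fell are shown because Smad3 and Smad4 bind the Smad box, whose core is CAGAC. Capitals mark that core or its reverse complement GTCTG. The sequences are from RefSeq (GRCm38.p6) and show bases upstream of the transcription start, read in the direction of the gene, at chr1:186705990-186706239 for Tgfb2, chr13:56609336-56609522 for Tgfbi and chr9:63757995-63758244 for Smad3. Bases of the Tgfbi window that lie within an annotated transcript of the gene are left out.
Tgfb2: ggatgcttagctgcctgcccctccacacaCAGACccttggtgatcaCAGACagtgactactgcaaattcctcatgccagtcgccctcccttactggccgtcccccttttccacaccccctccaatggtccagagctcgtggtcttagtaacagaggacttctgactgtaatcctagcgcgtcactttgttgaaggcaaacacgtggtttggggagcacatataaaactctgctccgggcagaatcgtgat
Tgfbi: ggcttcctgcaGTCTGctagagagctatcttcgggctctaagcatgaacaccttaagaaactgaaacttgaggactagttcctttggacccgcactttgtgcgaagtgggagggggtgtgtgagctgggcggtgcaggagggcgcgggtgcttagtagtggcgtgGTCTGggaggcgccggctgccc
Smad3: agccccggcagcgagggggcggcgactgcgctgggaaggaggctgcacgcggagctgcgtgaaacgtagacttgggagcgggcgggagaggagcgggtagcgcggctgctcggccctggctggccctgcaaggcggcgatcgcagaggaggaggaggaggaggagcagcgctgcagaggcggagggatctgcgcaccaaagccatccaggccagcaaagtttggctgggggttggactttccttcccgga
Within 250 bases upstream, the core occurred 2 times for Tgfb2 and 2 times for Tgfbi, at 1 place for Tgfbr2, and at 0 for Tgfb1, Tgfbr1 and Smad3. A further RefSeq start of Tgfbr1 that lies inside the gene was not counted and had 1 core. Such a short word is common. Of the 32851 mouse promoters searched the same way on both strands, 42.2% held at least 1 core and 11.7% held 2 or more. No binding was measured in this series, so a match describes the letters only. Tgfb3 and Tgfbr3 had no promoter entry, and the promoters of Smad2 and Smad7 are not shown.

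Ordered by level per kb of exon, the control muscles had Smad3 (16.4 ± 1.65 CPM per kb) and Tgfb3 (15.5 ± 0.93) first, then Tgfbr2 (10.3 ± 0.93), Tgfbi (10.1 ± 2.66) and Tgfbr3 (8.76 ± 1.55). Tgfbr1 (5.10 ± 0.54), Tgfb1 (3.76 ± 0.55), Tgfb2 (2.63 ± 0.58), Smad7 (2.16 ± 0.24) and Smad2 (1.68 ± 0.22) followed. Neighbours in this order were separated without overlap at Tgfb3 and Tgfbr2, at Tgfbr3 and Tgfbr1, and at Tgfbr1 and Tgfb1, and the other neighbours overlapped. In the Dnm2 wt/K562E muscles Smad3 moved from the first to the fifth place, at 11.4 ± 0.95 CPM per kb. Tgfb3 (23.9 ± 1.73), Tgfbi (23.3 ± 2.42), Tgfbr3 (17.5 ± 2.96) and Tgfbr2 (15.6 ± 1.13) stood before it, and Tgfb2 (6.38 ± 0.33) overtook Tgfb1 (5.30 ± 0.59), with overlap. Smad7 (2.17 ± 0.56) and Smad2 (1.99 ± 0.10) were last in both genotypes.

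Genes whose levels ran most nearly parallel to each ligand over the 8 mice were found from the root mean square difference of centred log2 CPM, a measure of likeness that is smaller for more similar patterns. For Tgfb3 the nearest were Spred1 (0.056) and Rnh1 (0.061), with log2 fold changes of 0.68 and 0.63. For Tgfb2 they were Hmgn3 (0.099), Crispld1 (0.119) and Tmem119 (0.121), with 1.27, 1.37 and 1.27. For Tgfb1 the differences were 0.084 for Sec61a1, 0.085 for Atp6v1g2 and 0.086 for Pycard, and of these Sec61a1 passed the test (log2 fold change 0.41, adjusted p = 0.00783, edgeR). Among the 10 genes themselves, Tgfb3 and Tgfbr2 ran closest (0.116), and Tgfb2 and Smad3 were farthest apart (0.946). Likeness here is set largely by the genotype difference, which all 8 mice share.

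A further 52 genes of the pathway, taken from lists by role, were read from the same comparison. These lists too were chosen with earlier results of these data known, which limits how their counts compare with those of all genes. Of these, 29 rose and 8 fell at an adjusted p under 0.05, 23 were called higher and 2 lower with the fold threshold, and their median log2 fold change was 0.48. Over all tested genes, 22.2% rose and 21.7% fell, and 12.9% and 7.85% were called with the fold threshold, so the share of the 52 that fell was below that of all genes. The spread between roles was wide. Genes that store, release or trap ligand were mostly higher, co-receptors and receptor partners were mostly lower or not called, and Smad partners were split.

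Ligand storage and release counted 13 genes, of which 10 rose at an adjusted p under 0.05, 6 with the fold threshold as well, and 0 fell. Of all tested genes, 22.2% rose, 12.9% with the fold threshold as well, and 21.7% fell. All 4 genes of the latent TGF-beta binding protein family rose: Ltbp2 by 1.69, Ltbp3 by 1.03, Ltbp1 by 0.38 and Ltbp4 by 0.38 on the log2 scale. They were listed by family name, and whether each protein holds latent ligand was not examined. Ltbp3 was at 69.1, 77.8, 78.7 and 89.7 CPM in controls and 175, 158, 146 and 168 CPM in Dnm2 wt/K562E mice, with no mutant near the controls (adjusted p = 6.22e-06, edgeR). Among the activators, Thbs1 (thrombospondin 1, which opens the latent complex) rose by 1.54, and the matrix proteases Mmp2 and Mmp14 by 1.44 and 1.06. The integrin chains Itgb8 and Itgav, which take part in releasing latent ligand, rose by 1.05 and 0.33, and Itgav lost its call in 3 of the 17 alternatives. Nrros, which holds latent TGF-beta on macrophages and microglia, rose by 0.56 (adjusted p = 0.0287, edgeR), and this call was lost in 8 of them. Lrrc32 (-0.13), Itgb6 (0.16) and the ligand-processing protease Furin (-0.01) did not pass.

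Of the 6 ligand traps, extracellular proteins that bind TGF-beta, 5 were called higher and 0 lower, against 12.9% and 7.85% of all tested genes. The small proteoglycans Bgn (1.44), Fmod (1.11) and Dcn (0.99 on the log2 scale) and the membrane proteins Cd109 (0.91) and Vasn (0.82) rose. Biglycan, Bgn, was at 307, 239, 279 and 351 CPM in controls and 960, 740, 707 and 775 CPM in mutants, a wide gap (adjusted p = 9.34e-06, edgeR). Htra1, a protease, had 0.33 and did not pass with all mice (adjusted p = 0.116, edgeR), but did without control 4 (0.54, adjusted p = 0.00112). Vasn shares 5.3% of its exon length with Dnaja3 on the same strand, so part of its count can belong there.

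The other co-receptors and the receptor partners differed from Tgfbr1, Tgfbr2 and Tgfbr3. Of 8 co-receptors and receptor partners, 1 rose and 4 fell at an adjusted p under 0.05, where 22.2% and 21.7% of all tested genes did. With the fold threshold 0 passed either way, although 1 higher and 2 lower did without control 1 and 1 higher without Dnm2 wt/K562E mouse 1. Endoglin (Eng) and Acvrl1, the co-receptor and type I receptor by which endothelial cells respond to TGF-beta and BMP9, fell by 0.50 and 0.46 on the log2 scale. Eng stood at 135, 192, 181 and 172 CPM in controls and 120, 116, 107 and 137 CPM in Dnm2 wt/K562E mice, with control 1 inside the mutant range. Cd36, a fatty acid uptake gene that was counted on this list, fell by 0.44, and the receptor adaptor Zfyve9 by 0.28. The decoy receptor Bambi rose by 0.57, a call lost in 1 of the 17 alternatives. Tgfbrap1 (-0.03), Fkbp1a (0.03) and Strap (-0.01) did not pass. The falls of Acvrl1 and Zfyve9 were no longer past the adjusted p with library size alone.

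Of 11 Smad partners and brakes, 3 rose and 2 fell at an adjusted p under 0.05, and with the fold threshold Tgif1 (0.90) and Ski (0.61), both nuclear repressors of Smad complexes, were called higher. The shares of the list that rose and fell by the adjusted p alone are near the 22.2% and 21.7% of all tested genes. Ski lies near the fold threshold and fell below it without control 1 (0.53) or Dnm2 wt/K562E mouse 1 (0.53), while 3 genes of the list were called higher without control 4 or Dnm2 wt/K562E mouse 2 or 3. Skil, a relative of Ski, had 0.42 (adjusted p = 0.0454, edgeR) and lost its call in 8 of 17 alternatives. The ubiquitin ligase Wwp1 fell by 0.44 and the deubiquitinase Usp15 by 0.57. Smad4, the shared partner of Smad2 and Smad3, had -0.18 (adjusted p = 0.0651, edgeR). Pmepa1, a feedback inhibitor, had 0.55 (adjusted p = 0.0529, edgeR). It passed in 8 of 17 alternatives, among them the fit without control 4 (0.71, adjusted p = 0.016, edgeR). With all mice, Smurf1, Smurf2, Tgif2 and Ppm1a did not pass either.

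Genes often induced by TGF-beta were the most changed group, with 10 of 14 called higher, 2 lower and a median log2 fold change of 1.18. The calls over all tested genes were 12.9% higher and 7.85% lower. Nox4, an oxidase that produces hydrogen peroxide, had 7.77, 6.12, 5.33 and 5.74 CPM in controls and 30.1, 32.3, 24.6 and 26.6 CPM in Dnm2 wt/K562E mice, a 4.56-fold rise (log2 2.19, SE 0.13, adjusted p = 1.05e-06, edgeR). The matricellular gene Postn rose by 2.15 and Ccn2 (connective tissue growth factor) by 1.94 on the log2 scale. Ccn2 varied widely among mutants, at 739, 188, 506 and 783 CPM against 176, 115, 147 and 139 CPM in controls, so that mutant 2 lay just above the controls. Timp1 (1.61), Junb (1.28), the collagen cross-linker Lox (1.26), Fn1 (1.21), Col3a1 (1.15), Col1a2 (1.00) and Col1a1 (1.00) rose as well. The smooth muscle and myofibroblast genes Acta2 and Tagln, also on the list, fell by 0.82 and 0.67. Acta2 was at 139, 224, 188 and 195 CPM in controls and 108, 106, 100 and 108 CPM in mutants. Of the Tagln transcripts, 62.2% of 31-base stretches also occur in other annotated transcripts, so its count is uncertain. The share was 19.7% for Ccn2 and 70.4% for Tgif2 of the Smad partners, whose count is uncertain too. Because the strand setting is not known, reads of Zfyve9, Ltbp2 and Junb cannot be separated from a gene on the opposite strand that shares 10.9%, 9.3% and 7.5% of their exon length. The same holds for the cell type markers Ckm (15.5%), Csf1r (15.1%) and Alas2 (12.9%). Cdkn1a (-0.61) and Cdkn2b (0.26) did not pass, though Cdkn1a did without control 1 (-0.87, adjusted p = 2.12e-04, edgeR). These genes respond to other signals too, so their levels do not measure TGF-beta activity.

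**Figure D4:**
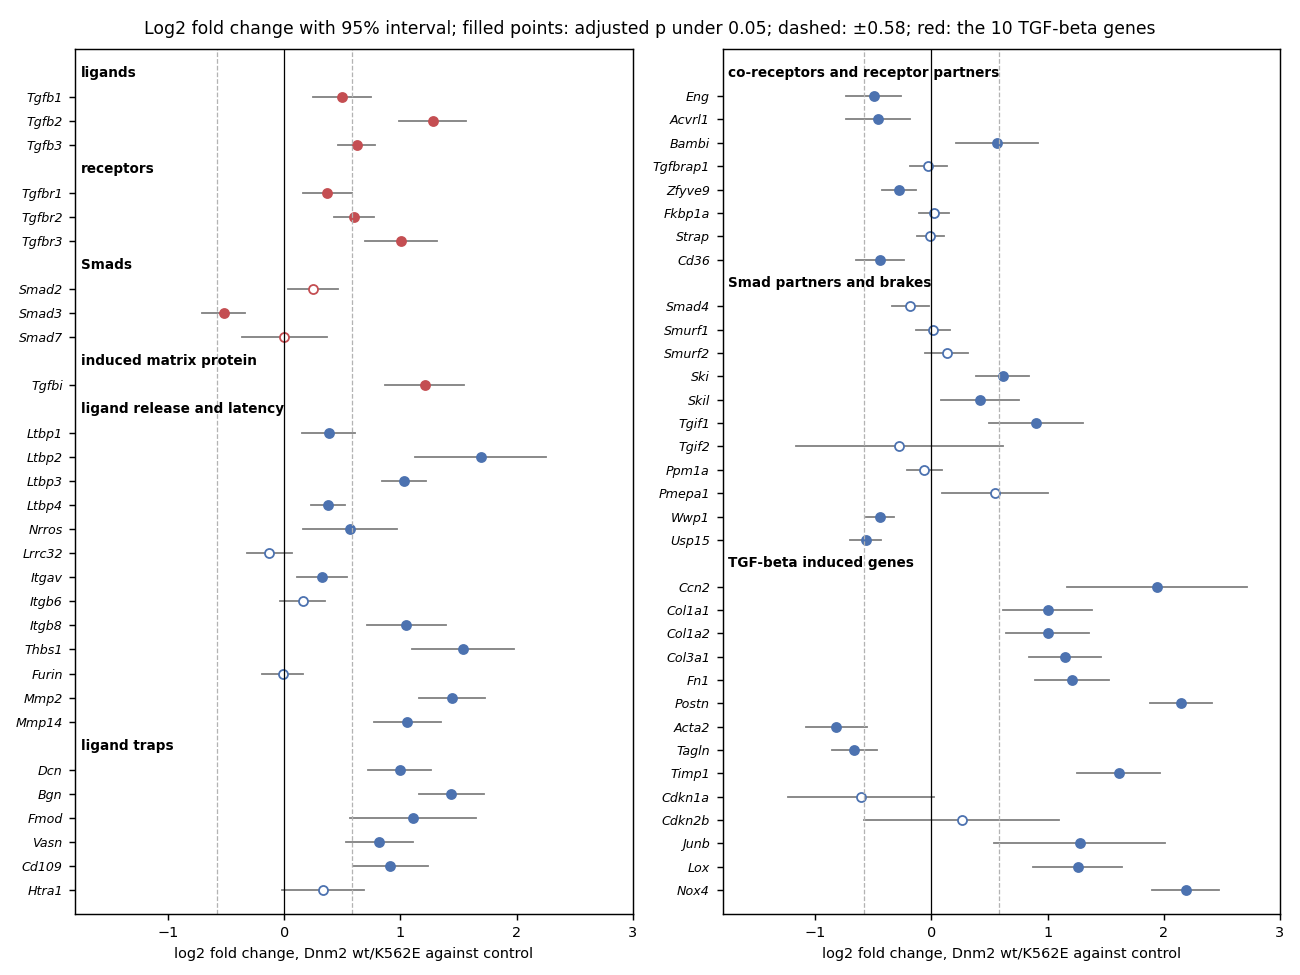
Log2 fold change of Dnm2 wt/K562E against control mice with its 95% interval (horizontal axes) for the 10 TGF-beta genes (red) and 52 further pathway genes (blue), grouped by role; filled points have an adjusted p under 0.05 and dashed lines stand at ±0.58. Ligand traps and most induced genes lie to the right, Nox4 (2.19) furthest, whereas the co-receptors and receptor partners other than Bambi (0.57) lie around or left of 0.

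Marker lists of the cell types in muscle differed in direction, with some higher, some lower and some not changed in the mutants. Their part in the changes of the TGF-beta genes was not tested. Their counts stand against 12.9% called higher and 7.85% called lower over all tested genes. The summed level of 7 macrophage markers was 72.8 to 135 CPM in controls against 179 to 296 CPM in the mutants, and all 7 were called higher, for example Cd68 (1.77 on the log2 scale). Of 7 markers of fibro-adipogenic progenitors and fibroblasts, 5 were called higher, among them Pdgfra (1.11), while Ly6a was lower (-0.19, adjusted p = 0.0332, edgeR). The count called higher was 3 without control 2, control 3 or Dnm2 wt/K562E mouse 2 or 3. Their sum went from 1452 to 2574 CPM in controls to 2721 to 3344 CPM in mutants. Tendon markers, 4 of 5 called higher, summed to 126 to 252 CPM and 302 to 428 CPM. As with Tgfbi, control 4 had the highest control value of the fibroblast (2574 CPM), macrophage (135 CPM) and tendon (252 CPM) lists. The same held for the adipocyte list (154 CPM), and control 1 came close on the tendon list (235 CPM).

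Other lists went down, where 21.7% of all tested genes were lower at an adjusted p under 0.05. Muscle fibre markers summed to 62540 to 70510 CPM in controls and 42970 to 47530 CPM in mutants, with 6 of 7 lower at an adjusted p under 0.05, among them Ckm (-1.02) and Myh7 (-0.52). Endothelial markers, 6 of 6 lower at that threshold, summed to 975 to 1018 CPM and 690 to 794 CPM, with Pecam1 at -0.26 and Kdr at -0.64. Smooth muscle and pericyte markers, 4 of 6 lower and 1 higher, summed to 1658 to 1846 CPM and 1243 to 1474 CPM, with Myh11 at -0.63. Eng, Acvrl1, Acta2 and Tagln also fell, and whether these cell types had a part in that was not tested. With library size alone, 3 of 6 endothelial and 2 of 6 smooth muscle markers were lower and Pecam1 (-0.05) did not pass.

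Satellite cell markers summed to 29.4 to 37.1 CPM in controls and 23.7 to 26.7 CPM in mutants, with 3 of 4 called lower. These were Pax7 (-2.03), Myf5 (-1.85) and Calcr (-3.47 on the log2 scale). Most of the sum came from Cdh15, which did not pass (0.08), at a mean of 21.4 CPM in controls and 22.6 CPM in mutants. Erythroid markers, 3 of 3 called lower, summed to 451 to 769 CPM and 210 to 444 CPM. Schwann cell markers (158 to 178 CPM and 132 to 165 CPM, 1 of 5 lower) and adipocyte markers (28.4 to 154 CPM and 46.4 to 88.4 CPM, 0 of 3 called) overlapped between the genotypes. The 1 of 5 Schwann cell markers lower at an adjusted p under 0.05 is near the 21.7% of all tested genes. The T cell markers Cd3e, Cd3g, Cd8a and Cd4 were under 1 CPM on average in both genotypes. By comparison, the summed ligands were at 79.0 to 91.2 CPM and 136 to 152 CPM, the receptors at 153 to 186 CPM and 259 to 304 CPM, and the 3 Smads at 104 to 128 CPM and 81.7 to 98.5 CPM.

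**Figure D5:**
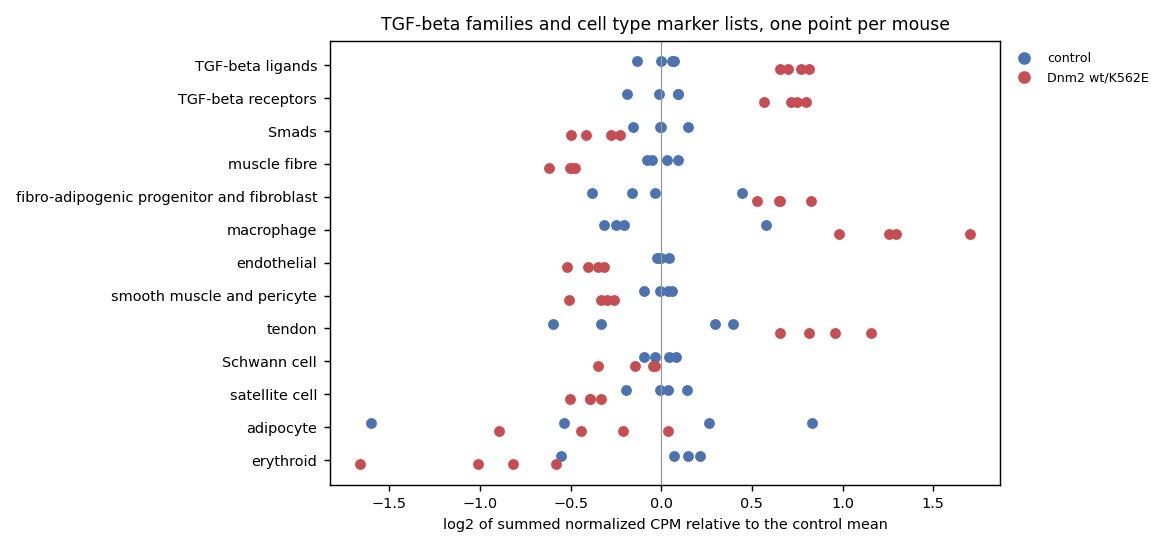
Log2 of the summed normalized CPM of each TGF-beta family and each cell type marker list, relative to the control mean (horizontal axis), with 1 point per mouse for controls (blue) and Dnm2 wt/K562E mice (red). Ligand, receptor, macrophage and fibroblast sums lie to the right of the controls in all 4 mutants, and Smad, muscle fibre and endothelial sums to the left.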

How the data were processed

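Poly A-enriched libraries are described in the methods and a stranded total RNA kit in the labels, so the library type and the strand setting of the counting are uncertain. Per the submitters' notes, the authors trimmed reads with Trimmomatic 0.33, aligned them to GRCm38.p5 with STAR 2.5.1b and counted them with featureCounts. The authors deposited raw counts per gene, 1 column per mouse. Reads that overlapped more than 1 gene were added to each, and multi-mapping reads to their primary alignment. No exon of the 10 genes overlaps another counted gene. Of the 31-base stretches of their transcripts, at most 9.96% (Tgfb3) also occur in another annotated gene.

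Of 22880 gene IDs, 22647 matched GENCODE M21 (GRCm38), which gave symbols, positions and exon lengths. With edgeR 4.0.16 in R 4.3.3, filterByExpr (minimum count 10, minimum total 15) kept 14001 genes, which were fitted after TMM scaling with the quasi-likelihood F-test, 4 against 4 mice, and adjusted by Benjamini-Hochberg over all of them. Calls needed an adjusted p below 0.05 and a log2 difference of 0.58 or more, as in the study, whose exact test is an alternative. SE and 95% intervals follow from F. The fitting was tested on simulated data. Depth was 33407430 to 48832814 counts.

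The members and lists were chosen with earlier results of these data known. Named genes are the 10 genes, Dnm2, genes of the lists, and the 3 tested genes outside the lists nearest to each ligand; 1 gene near Tgfb3 and 1 gene planned for the list of induced genes are not reported here. Alternatives were DESeq2 1.42.0, other scalings and filters, either numbering of the mice as a replicate block, no fold threshold, and leaving out each mouse.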

Additional observations from a re-analysis of the deposited data

Results flagged for a closer look

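Tgfbi in control 4, at 53.0 normalized CPM, stood apart from the other 3 controls, which were at 31.7 to 34.6 CPM. The gap to the nearest control was 0.864 of the range of the group, above Dixon's 95% critical value for 4 samples. Of the 20 groups examined, 10 genes in each genotype, 1 was flagged, and chance alone flags about 1 in 20. The same mouse had the highest macrophage (135 CPM), fibroblast (2574 CPM), tendon (252 CPM) and adipocyte (154 CPM) marker sums of the controls. On the tendon list control 1 came close (235 CPM), with Tgfbi at 32.8 CPM. The part of these cell types in the Tgfbi value of control 4 was not tested. Without control 4 the log2 fold change of Tgfbi was 1.40 (adjusted p = 3.27e-06, edgeR), against 1.21 with it.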

How the results depend on the processing

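The 8 genes of the 10 that passed an adjusted p under 0.05 (Tgfb1, Tgfb2, Tgfb3, Tgfbr1, Tgfbr2, Tgfbr3, Smad3 and Tgfbi) kept their direction and stayed under it in all 17 refits, with log2 fold changes of 0.41 to 0.71, 1.18 to 1.49, 0.58 to 0.83, 0.30 to 0.58, 0.56 to 0.82, 0.92 to 1.216, -0.59 to -0.31 and 1.13 to 1.42. Calls with the fold threshold were less stable, because Tgfb3 and Tgfbr2 lie near it. Leaving out 1 mouse gave 4 to 5 of the 10 higher and 0 to 1 lower (Smad3, without control 4). With library size alone, 2865 genes were called higher and 564 lower, Smad2 passed (0.46, adjusted p = 0.00281), and signs turned for Smad7 (0.21), Lrrc32 (0.085), Furin (0.20), Tgfbrap1 (0.19), Strap (0.20), Smad4 (0.033) and Ppm1a (0.15). Without a fold threshold, 3103 genes were higher and 3036 lower, with 1 of the 10 lower. Requiring 10 counts in every mouse let Smad2 pass (0.26, adjusted p = 0.0498) and turned Smad7 (0.0095) and Strap (0.0014), and the exact test turned Smad7 (0.00049). Leaving out 1 mouse gave ranges of 0.20 to 0.33 for Smad2, -0.18 to 0.12 for Smad7, -0.092 to 0.023 for Furin, -0.067 to 0.014 for Tgfbrap1, -0.020 to 0.051 for Fkbp1a, -0.029 to 0.0090 for Strap, -0.022 to 0.044 for Smurf1 and -0.45 to 0.025 for Tgif2. None of the genes whose sign turned had passed the test. With library size alone every log2 fold change was about 0.21 higher, as stated above, enough to turn values a little below 0. The cause of the other shifts was not tested. Mice that share a number are separate animals. Deviations of such mice from the mean of their genotype correlated at -0.114 on average for the numbers in the titles and -0.03 for those in the descriptions. With the mouse number as a replicate block, 5 of the 10 genes were called higher and 0 lower under either numbering, and over all genes 1637 higher and 1036 lower (titles) or 1739 and 1083 (descriptions). The block by titles took Bambi (adjusted p = 0.058), Nrros, Itgav and Skil above 0.05, and that by descriptions Nrros, while Htra1 and Pmepa1 came to pass under the latter. With 4 mice per genotype, the interval of Smad7 is the widest of the 10 genes.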
